A study of Rattus norvegicus with 12 samples.

Results

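Pdk4 and 8 genes of fuel choice that are known, or in part known, as fasting-type targets of the PPAR nuclear receptors (Pdk1, Pdk2, Lpin1, Ucp2, Ucp3, Angptl4, Acot1 and Vnn1) were followed in rat left atrium and left ventricle after volume overload. A probe set was taken where its only gene symbol in the platform annotation was one of these 9 names, which gave 14 probe sets of 31042 that are not controls, and 9 genes of 14217 with a symbol. The set was chosen by results of these same arrays, in which Pdk4 was lower in the shunt atrium, Ucp2 and Pdk4 lower and Vnn1 higher in the shunt ventricle. The shunt against sham values of the 9 genes are therefore given as a description with no test. The comparison tested for them is left atrium against left ventricle averaged over both operations, which does not use those contrasts.

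The 4 groups were left atrium after shunt, left atrium after sham, left ventricle after shunt and left ventricle after sham, with 3 arrays each. All came from male Sprague-Dawley rats of 225 to 275 g, a weight range given without an age, 28 days after an aorto-caval shunt or a sham operation. The shunt is a surgical opening between aorta and vena cava that returns extra blood to the heart. Each array held total RNA of 1 pool of 2 atrial appendages or 2 ventricular free walls, so an array is an average of animals, and the p-values measure the spread between pools.

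Pyruvate dehydrogenase turns pyruvate into acetyl-CoA and is the gate through which glucose carbon enters mitochondrial oxidation. The pyruvate dehydrogenase kinases (Pdk genes) phosphorylate the complex and close that gate. During fasting, fatty acids activate PPAR receptors, which with retinoid X receptors raise transcription of Pdk4 and of genes that take up, store, release and burn fat, and the heart burns mostly fat in that state. PPAR and retinoid X receptors bind together at a direct repeat of the hexamer AGGTCA with 1 base between its copies.

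Start-site sequence of the members was available for 8 of the 9 genes in RefSeq (assembly GRCr8), 250 bases before to 50 bases after the start. The promoters of Pdk4 and Lpin1 are shown because these genes had the closest pattern over the arrays, and that of Ucp3 because it was the only one of the 8 to hold the hexamer. The windows are Pdk4 chr4:34568280-34568579 on the minus strand, Lpin1 chr6:45108893-45109192 on the minus strand and Ucp3 chr1:164227660-164227959 on the plus strand, each written 5′ to 3′ along the gene with AGGTCA in capitals.
Pdk4 promoter: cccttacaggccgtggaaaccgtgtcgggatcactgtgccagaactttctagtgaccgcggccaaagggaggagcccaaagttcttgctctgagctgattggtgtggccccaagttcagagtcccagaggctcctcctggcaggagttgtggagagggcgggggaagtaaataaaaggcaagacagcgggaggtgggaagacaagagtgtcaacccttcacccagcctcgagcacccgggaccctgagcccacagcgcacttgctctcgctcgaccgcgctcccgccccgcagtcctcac
Lpin1 promoter: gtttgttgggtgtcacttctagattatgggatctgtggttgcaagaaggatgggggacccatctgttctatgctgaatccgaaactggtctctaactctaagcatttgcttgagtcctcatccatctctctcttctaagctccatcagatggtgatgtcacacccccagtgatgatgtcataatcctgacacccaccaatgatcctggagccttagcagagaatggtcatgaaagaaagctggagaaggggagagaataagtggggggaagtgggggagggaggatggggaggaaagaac
Ucp3 promoter: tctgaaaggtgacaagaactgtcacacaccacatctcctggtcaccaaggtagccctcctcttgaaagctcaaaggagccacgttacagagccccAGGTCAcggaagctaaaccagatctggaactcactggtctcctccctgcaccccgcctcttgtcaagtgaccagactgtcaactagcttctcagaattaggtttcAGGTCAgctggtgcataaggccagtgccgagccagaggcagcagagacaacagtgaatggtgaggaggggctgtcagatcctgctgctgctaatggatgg

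The hexamer AGGTCA, searched on both strands, lay in 1 of 8 member promoters, against 16.2% of 33469 rat promoters of the same length. In Ucp3 its copies began 155 and 50 bases before the start. The exact direct repeat with 1 base between lay in 0 of 8, against 0.0538% of all promoters. With at most 2 mismatches it lay in 1 of 8, against 3.77% of all, and this match in Ucp3 began 57 bases before the start and overlapped the hexamer at 50. The windows of Pdk4 and Lpin1 held neither, which says only that these letters are not within these 300 bases.

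The values are log2 RMA values, in which 1 unit is a doubling of signal, and they compare a probe set across arrays but not 1 probe set with another. Of the 9 genes, 8 passed a filter on low values with 13 of their 14 probe sets. Acot1 did not, so it was not tested. Where a gene has several probe sets, the passing one with the highest mean stands for it. Atrial shunt 3 stood apart from the other arrays, with a root mean square deviation from its group of 0.200 log2 units, against 0.0913 to 0.163 on the other 11. Its 3′ probe set of the hexokinase control exceeded the 5′ one by 1.44, the largest such gap, against 0.80 to 1.23 on the others, a sign of RNA quality. Atrial myocyte markers averaged 11.15 to 11.33 on the atrial arrays and 5.65 to 6.56 on the ventricular arrays, and ventricular myocyte markers 5.79 to 6.78 and 10.36 to 10.64, as the chamber labels say. In such tissue RNA, fewer cells of a type and less RNA per cell cannot be told apart, and 3 arrays per group limit the precision.

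Pdk4, the kinase isoform most responsive to fasting and PPAR ligands, had values of 7.68, 7.51 and 7.69 on the atrial shunt arrays and 8.54, 8.54 and 8.56 on the atrial sham arrays. In the ventricle it had 9.04, 8.86 and 9.08 after the shunt and 9.35, 9.49 and 9.39 after sham. Every shunt array was below every sham array in both chambers, and every atrial array was below every ventricular one. The shunt minus sham difference was -0.92 ± 0.08 in atrium (SE of the fit, n = 3 per group), a fold of 0.529, and -0.42 ± 0.08 in ventricle, a fold of 0.749. Without atrial shunt 3 the atrial difference was -0.95.

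The second Pdk4 probe set had 6.49, 6.40 and 5.82 on the atrial shunt arrays and 6.90, 6.91 and 7.02 on the atrial sham arrays. It had 7.56, 7.63 and 7.75 after the shunt and 8.28, 8.40 and 8.25 after sham in the ventricle. Shunt and sham again did not overlap in either chamber, and atrial shunt 3 was the lowest of the 12 arrays. Its shunt minus sham differences were -0.71 ± 0.14 in atrium and -0.67 ± 0.14 in ventricle, so the larger atrial difference of the first probe set was not seen in the second. The atrial difference of the second probe set is smaller in size without atrial shunt 3, unlike that of the first.

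Lpin1 encodes lipin-1, a phosphatidate phosphatase of triglyceride synthesis that in mouse liver also acts in the nucleus with PPARα. It had 7.87, 7.85 and 7.95 on the atrial shunt arrays and 8.88, 8.65 and 8.92 on the atrial sham arrays. Ventricular values were 8.33, 8.34 and 8.63 after the shunt and 8.83, 9.12 and 8.89 after sham. Shunt arrays were below sham arrays in both chambers, as with Pdk4, and the lowest of the 4 groups was the shunt atrium. The shunt minus sham difference was -0.93 ± 0.11 in atrium, a fold of 0.525, and -0.52 ± 0.11 in ventricle, a fold of 0.698. Without atrial shunt 3 the atrial difference was -0.96. The second Lpin1 probe set gave -0.76 ± 0.09 in atrium and -0.36 ± 0.09 in ventricle, also without overlap.

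Pdk1, a kinase isoform known as a target of hypoxia-inducible factor, had 8.17, 8.31 and 8.19 on the atrial shunt arrays and 8.44, 8.43 and 8.43 on the atrial sham arrays. Ventricular values were 9.63, 9.77 and 9.74 after the shunt and 9.85, 9.86 and 9.68 after sham. The atrial groups did not overlap, the ventricular ones did, and the gap between chambers was many times the spread within a group. The shunt minus sham difference was -0.21 ± 0.07 in atrium and -0.09 ± 0.07 in ventricle. The second Pdk1 probe set gave -0.05 ± 0.08 and 0.01 ± 0.08, both within 1 SE of 0 and with overlapping groups.

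Pdk2, the widely expressed isoform of the kinase, had 10.18, 10.28 and 10.35 on the atrial shunt arrays and 10.36, 10.30 and 10.33 on the atrial sham arrays. In the ventricle it had 10.75, 10.67 and 10.84 after the shunt and 10.79, 10.83 and 10.75 after sham. Shunt and sham overlapped in both chambers. The differences were -0.06 ± 0.07 in atrium and -0.04 ± 0.07 in ventricle, and the second probe set gave -0.12 ± 0.08 and -0.04 ± 0.08.

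**Figure D1:**
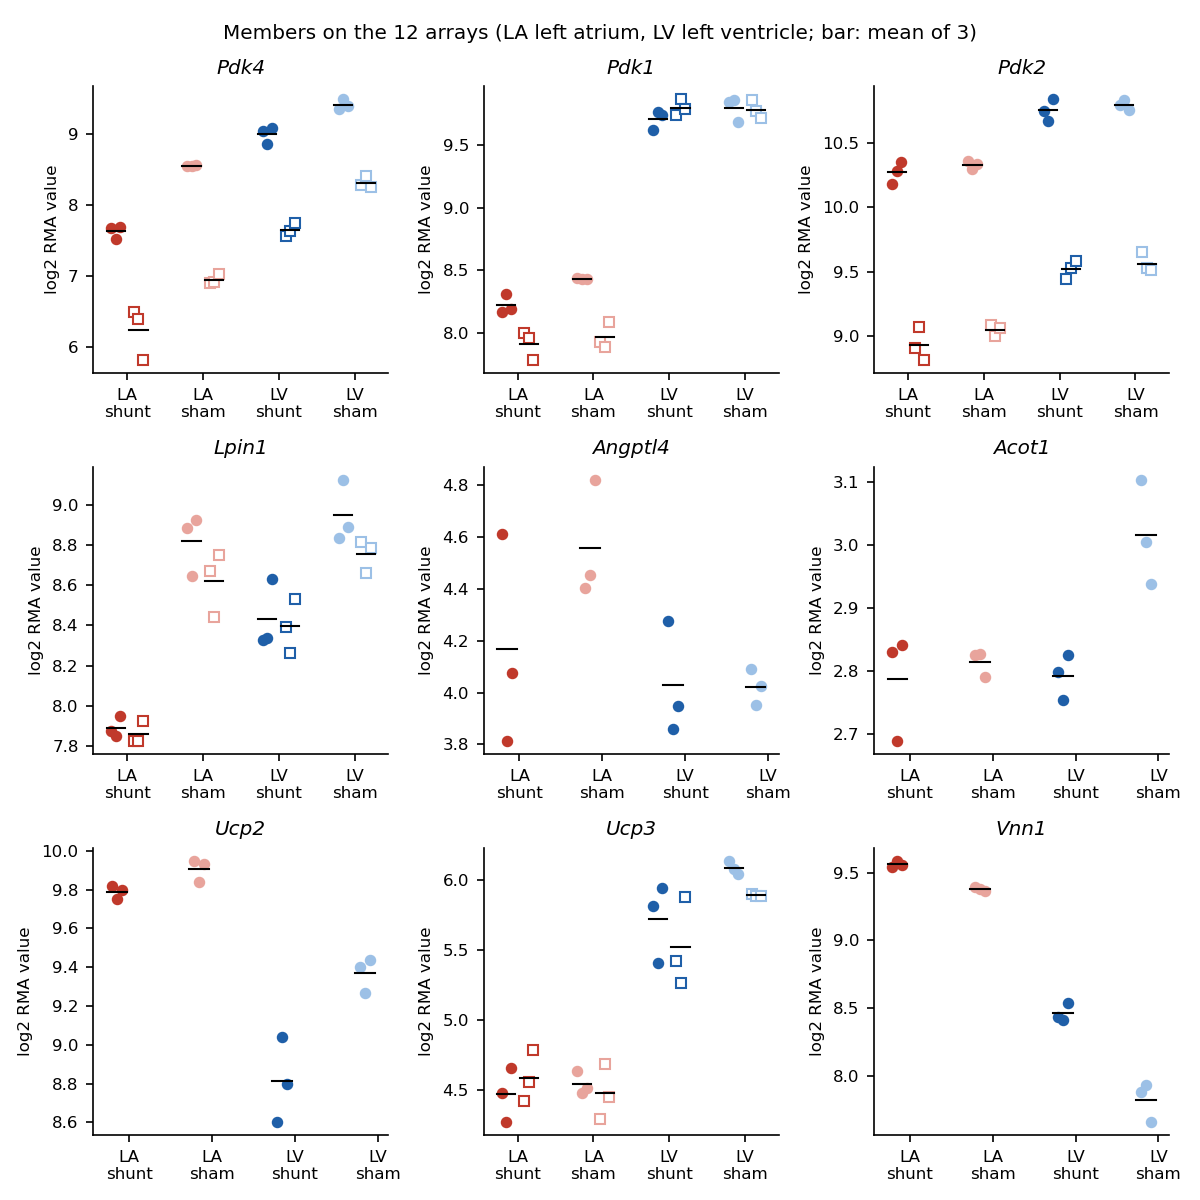
Log2 RMA value (y axis, a scale of its own in each panel) of the 9 genes on the 12 arrays, by group of left atrium (LA) or left ventricle (LV) after shunt or sham. Filled circles are the probe set that stands for the gene, open squares a second one, bars the mean of 3 arrays; the shunt points of Pdk4 and Lpin1 lie below the sham points in both chambers, and those of Vnn1 above.

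Angptl4 encodes a secreted inhibitor of lipoprotein lipase that rises in fasting. It had 4.61, 3.81 and 4.08 on the atrial shunt arrays and 4.40, 4.45 and 4.82 on the atrial sham arrays. It had 4.28, 3.86 and 3.95 after the shunt and 4.09, 3.95 and 4.03 after sham in the ventricle. The groups overlapped in both chambers, and its mean of 4.19 over the 12 arrays lay just above the filter at 4.01. The shunt minus sham difference was -0.39 ± 0.18 in atrium and 0.01 ± 0.18 in ventricle, and the atrial one ranged between -0.61 and -0.21 as single arrays were left out.

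Acot1 encodes a cytosolic thioesterase that frees fatty acids from acyl-CoA. It had 2.83, 2.69 and 2.84 on the atrial shunt arrays and 2.83, 2.83 and 2.79 on the atrial sham arrays. It had 2.80, 2.75 and 2.83 after the shunt and 3.10, 3.01 and 2.94 after sham in the ventricle. All 12 values were below the filter, and the ventricular sham arrays were the highest of them.

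Ucp2 encodes a carrier of the inner mitochondrial membrane related to the uncoupling protein of brown fat. It had 9.82, 9.75 and 9.80 on the atrial shunt arrays and 9.95, 9.84 and 9.93 on the atrial sham arrays. In the ventricle it had 8.60, 9.04 and 8.80 after the shunt and 9.40, 9.27 and 9.44 after sham. Shunt was below sham without overlap in both chambers, by little in atrium. The differences were -0.12 ± 0.10 in atrium and -0.56 ± 0.10 in ventricle (a fold of 0.680).

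Ucp3, the related carrier of heart and skeletal muscle, had 4.48, 4.27 and 4.66 on the atrial shunt arrays and 4.63, 4.48 and 4.51 on the atrial sham arrays. In the ventricle it had 5.82, 5.41 and 5.95 after the shunt and 6.14, 6.08 and 6.05 after sham. The atrial groups overlapped and the ventricular groups did not. The differences were -0.07 ± 0.13 in atrium and -0.37 ± 0.13 in ventricle. The second Ucp3 probe set gave 0.11 ± 0.15 in atrium, within 1 SE of 0 like the first, and -0.37 ± 0.15 in ventricle.

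Vnn1 encodes the pantetheinase vanin-1, which splits pantetheine into pantothenate, the precursor of coenzyme A, and cysteamine. It had 9.54, 9.59 and 9.56 on the atrial shunt arrays and 9.39, 9.38 and 9.36 on the atrial sham arrays. Ventricular values were 8.43, 8.41 and 8.54 after the shunt and 7.88, 7.93 and 7.66 after sham. It was the only member whose shunt arrays lay above the sham arrays in both chambers. The differences were 0.18 ± 0.07 in atrium, a fold of 1.14, and 0.64 ± 0.07 in ventricle, a fold of 1.56.

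**Figure D2:**
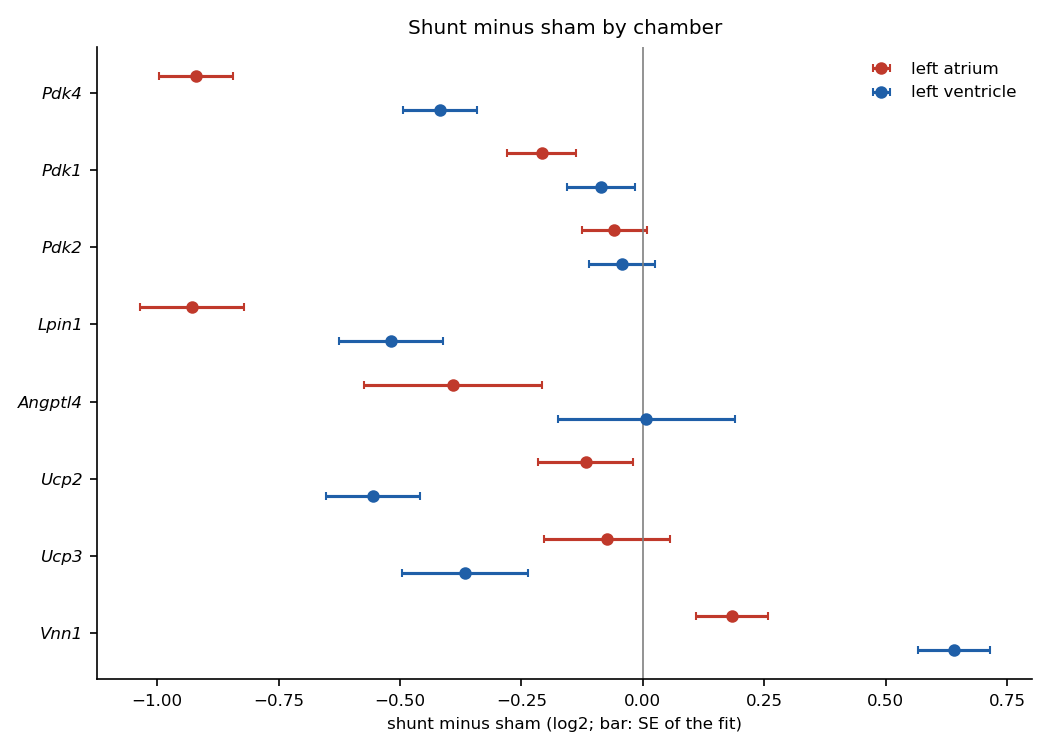
Shunt minus sham difference (x axis, log2) of the 8 tested members in left atrium and left ventricle, with bars of 1 SE of the fit. Pdk4 and Lpin1 are lowest in atrium at -0.92 and -0.93, Ucp2 is lowest in ventricle at -0.56, and Vnn1 is above 0 in both.

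Counts over the 8 tested members describe the values that chose them. In atrium 2 genes lay past the threshold, Pdk4 and Lpin1, both lower and with both probe sets of each, and 0 higher, where 0.827% of all probe sets passed as lower and 0.478% as higher. The arrays did not overlap for 4 members that were lower (Pdk4, Lpin1, Pdk1 and Ucp2) and 1 that was higher (Vnn1), where 12.4% and 8.33% of all probe sets did the same. In ventricle 1 gene lay past it as higher, Vnn1, and 0 as lower, where 0.0591% of all passed as higher (11 probe sets) and 0.0483% as lower (9 probe sets). This ventricular split became 16 higher and 22 lower after a further quantile normalization.

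The ventricular arrays did not overlap for 4 members that were lower (Pdk4, Lpin1, Ucp2 and Ucp3) and 1 that was higher (Vnn1), where 10.7% and 10.1% of all probe sets did the same. Pdk4, Lpin1 and Ucp2 were lower without overlap in both chambers, as 3.39% of all probe sets were. The members' median difference was -0.16 in atrium and -0.23 in ventricle, against -0.01 in each over all probe sets. The ventricular difference of Vnn1 was 0.56 to 0.69 as single arrays were left out. The ventricular count past the threshold was 0 without ventricular shunt 3, ventricular sham 1 or ventricular sham 3, 2 without ventricular shunt 2 and 3 without atrial shunt 3, and nothing is read from it.

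The shunt differences of the chambers were set against each other with an interaction term over all probe sets. None passed in limma, 0 of 18625 (0%), with 1229 at an unadjusted p under 0.05 and a smallest adjusted p of 0.0854. The atrial minus ventricular difference of the shunt effects was -0.50 ± 0.11 for Pdk4 by its first probe set and -0.04 ± 0.20 by its second. It was -0.41 ± 0.15 for Lpin1, -0.46 ± 0.10 for Vnn1, 0.44 ± 0.14 for Ucp2 and 0.29 ± 0.18 for Ucp3. It was -0.40 ± 0.26 for Angptl4, -0.12 ± 0.10 for Pdk1 and -0.02 ± 0.10 for Pdk2. These values are built from the contrasts that chose the members and are a description.

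Left atrium was then compared with left ventricle. All 3 kinases, Ucp3 and Lpin1 were lower in atrium, and Ucp2, Vnn1 and Angptl4 were higher. Pdk1 averaged 8.33 in atrium and 9.76 in ventricle, a difference of -1.43 ± 0.05 (6 arrays per chamber, limma adjusted p = 5.10e-10), and its second probe set gave -1.86 ± 0.06 (limma adjusted p = 1.47e-10). Pdk4 averaged 8.09 in atrium and 9.20 in ventricle, a difference of -1.11 ± 0.05 (limma adjusted p = 7.62e-09), and its second probe set gave -1.39 ± 0.10. Pdk2 averaged 10.30 and 10.77, a smaller difference of -0.47 ± 0.05 (limma adjusted p = 4.50e-06).

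Ucp3 averaged 4.51 in atrium and 5.91 in ventricle, a difference of -1.40 ± 0.09 (limma adjusted p = 1.05e-07). Its relative Ucp2 went the other way, at 9.85 in atrium and 9.09 in ventricle, a difference of 0.76 ± 0.07 (limma adjusted p = 1.80e-06). Vnn1 averaged 9.47 in atrium and 8.14 in ventricle, a difference of 1.33 ± 0.05 (limma adjusted p = 1.46e-09) and a fold of 2.51. For these 3 genes, as for the 3 kinases, no atrial array overlapped a ventricular one.

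Lpin1 and Angptl4 differed less, and their arrays overlapped. Lpin1 averaged 8.35 in atrium and 8.69 in ventricle, a difference of -0.34 ± 0.08 (limma adjusted p = 0.00234). Angptl4 averaged 4.36 in atrium and 4.03 in ventricle, a difference of 0.34 ± 0.13 (limma adjusted p = 0.0401). The Angptl4 call held in 5 of the 12 fits that left out an array, with differences of 0.23 to 0.43. It was lost without atrial shunt 1, atrial sham 3, ventricular shunt 2 or 3, or any of the 3 ventricular sham arrays.

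For some members the values of the chamber difference were not alike after shunt and sham. The interaction term that measures this passed for 0 of 18625 probe sets. Pdk4 stood at -1.37 ± 0.08 after the shunt and -0.86 ± 0.08 after sham by its first probe set, but at -1.41 ± 0.14 and -1.37 ± 0.14 by its second. Lpin1 stood at -0.54 ± 0.11 after the shunt and -0.13 ± 0.11 after sham. Ucp2 stood at 0.98 ± 0.10 and 0.54 ± 0.10, and Vnn1 at 1.10 ± 0.07 and 1.56 ± 0.07. These pairs hold the shunt differences above seen from the other side and are a description too.

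**Figure D3:**
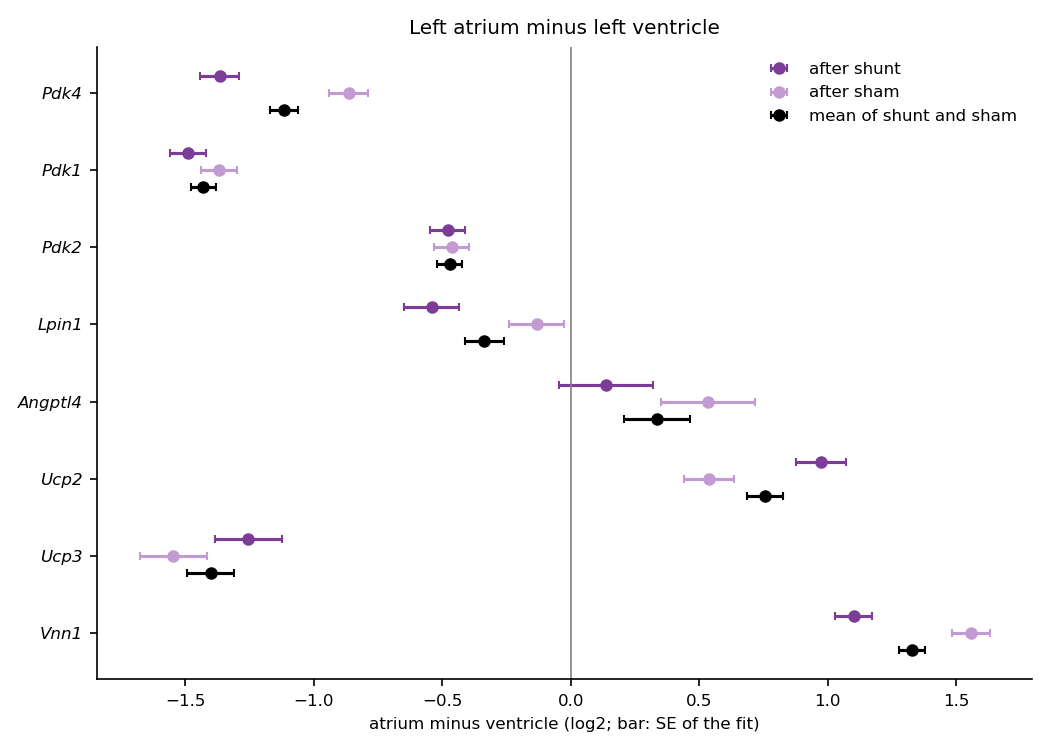
Left atrium minus left ventricle (x axis, log2) of the 8 tested members after shunt, after sham and averaged over both, with bars of 1 SE of the fit. Pdk1 at -1.43, Ucp3 at -1.40 and Pdk4 at -1.11 lie furthest below 0 in the average, and Vnn1 at 1.33 furthest above.

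Of the 8 tested members, 5 were lower and 3 higher past the threshold, in a comparison where 28.9% of all probe sets passed as lower and 30.6% as higher. The arrays did not overlap for 4 that were lower and 2 that were higher, where 15.2% and 18.7% of all probe sets did the same. In all 11081 of 18625 probe sets passed, so the members' calls alone do not set them apart. Their median difference was -0.40, against -0.0027 over all probe sets. Cell type markers differed between chambers too. The fibroblast list averaged 9.57 to 10.00 in atrium and 9.11 to 9.40 in ventricle, with 7 of 8 genes higher past the threshold, and the mesothelial list 5.83 to 6.50 and 4.20 to 4.53, with 4 of 5 higher, of which Krt19 and Krt8 passed the filter only through their atrial arrays. Their part in the members' chamber differences was not tested.

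The pyruvate dehydrogenase complex and its other regulators were lower in atrium than in ventricle. Of 10 tested genes of 11 listed, 9 were lower and 1 higher past the threshold, where 28.9% and 30.6% of all probe sets were, with a median of -0.52. Mpc1, a subunit of the mitochondrial pyruvate carrier, differed by -0.72 ± 0.04 (limma adjusted p = 1.64e-08), and Pdp2, a phosphatase that reverses the kinases, by -1.15 ± 0.06 (limma adjusted p = 2.27e-08). Pdk3, the remaining kinase isoform, was the one that was higher, by 1.53 ± 0.10 (limma adjusted p = 8.78e-08). Its mean was 5.52 in atrium and 3.99 in ventricle, the second below the filter at 4.01, so it passed the filter only through the atrial arrays, and its call is no support. With Pdk3 set aside, the 3 other kinase genes, Pdk1, Pdk2 and Pdk4, were lower in atrium. Between shunt and sham, 0 of the 10 passed in either chamber (limma, with 3 and 0 at an unadjusted p under 0.05 in atrium and ventricle), and the medians were 0.11 and 0.03. Differences in atrium lay between -0.18 and 0.23, all smaller in size than that of Pdk4, which was chosen with this contrast known.

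The other PPAR targets, enzymes and carriers of fat uptake, storage and oxidation, were also mostly lower in atrium. Of 32 tested genes of 35 listed, 24 were lower and 3 higher past the threshold, where 28.9% and 30.6% of all probe sets were, with a median of -0.56. Of the 24, Ehhadh passed the filter only through its ventricular arrays, at 3.78 in atrium and 4.57 in ventricle. Acadm and Acadl, which start the breakdown of medium-chain and long-chain acyl-CoA, differed by -1.78 ± 0.07 (limma adjusted p = 1.36e-09) and -0.94 ± 0.04 (limma adjusted p = 6.33e-09). Cpt2, which completes carnitine-dependent import of fatty acids, differed by -1.39 ± 0.05 (limma adjusted p = 5.25e-10).

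Between shunt and sham, 0 of these 32 passed in either chamber (limma, with 19 and 9 at an unadjusted p under 0.05 in atrium and ventricle). Differences were below 0 for 29 of 32 in atrium and 26 of 32 in ventricle, where 53.9% and 52% of all probe sets were below 0. Their medians were -0.19 and -0.11, smaller in size than the differences of Pdk4 and Lpin1, members chosen with these contrasts known. These genes share the shunt and sham arrays with the members, and the list overlaps with one already known to be lower on these arrays, so the signs are not independent evidence. The atrial count went up to 3 as single arrays were left out and up to 8 under other settings.

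Among receptors, partners and regulators of Pdk4, 17 of 18 listed were tested, and 8 were lower and 4 higher in atrium than in ventricle, where 28.9% and 30.6% of all probe sets were. Of the 8, Ppara passed the filter only through its ventricular arrays, at 3.99 in atrium and 4.59 in ventricle. Ppard, a PPAR isoform of muscle, differed by -0.67 ± 0.06 (limma adjusted p = 1.53e-06), and Esrra, an orphan receptor that drives oxidative genes, by -0.69 ± 0.06 (limma adjusted p = 9.33e-07). Nrip1, a corepressor of these receptors, was higher by 0.93 ± 0.08 (limma adjusted p = 8.09e-07). Between shunt and sham 1 of the 17 passed in atrium, the retinoid receptor Rxrg at -0.41 ± 0.09 (limma adjusted p = 0.0436), but only 1 of the 12 fits that left out an array kept it, the one without atrial shunt 3 (-0.50 to -0.35 over the 12), and it stood at -0.24 with its probe sets averaged. In ventricle 0 of 17 passed (limma, 1 at an unadjusted p under 0.05). The medians were -0.15 between chambers, -0.10 in atrium and -0.10 in ventricle.

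The lipoprotein lipase system, the enzyme that Angptl4 inhibits and its partners, had 6 tested genes of 7 listed. Lpl, the lipase, differed between atrium and ventricle by -0.38 ± 0.04 (limma adjusted p = 1.50e-05), and Gpihbp1, which holds it on capillaries, by -0.37 ± 0.10 (limma adjusted p = 0.00614). Mgll, a monoglyceride lipase, differed by -0.16 ± 0.06 (limma adjusted p = 0.0451), a call that held in 3 of the 12 fits that left out an array, and by -0.10 with its probe sets averaged. So 3 of the 6 were lower, where 28.9% of all probe sets were, the 3 others did not pass, and 0 of the 6 passed between shunt and sham in either chamber (limma, 3 in atrium and 0 in ventricle at an unadjusted p under 0.05). The medians were -0.08 between chambers, -0.14 in atrium and -0.07 in ventricle.

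Of the closest paralogs of the members, 8 were tested of 11 measured and 12 listed. Acot2, the mitochondrial paralog of Acot1, differed by -1.19 ± 0.07 between atrium and ventricle (limma adjusted p = 3.84e-08), and Lpin2 was higher by 0.63 ± 0.08 (limma adjusted p = 4.36e-05). With the probe sets of Lpin2 averaged its difference was 0.24. Pdk3, which passed the filter only through its atrial arrays, was counted above, and its call is no support. With it, 2 of the 8 were higher and 1 lower, where 30.6% and 28.9% of all probe sets were. Between shunt and sham 0 of 8 passed in either chamber (limma, 1 in atrium and 0 in ventricle at an unadjusted p under 0.05). Acot2 had 8.06, 8.07 and 8.20 on the atrial shunt arrays and 8.33, 8.49 and 8.43 on the atrial sham arrays. These did not overlap, as 12.4% of all probe sets were lower without overlap there. In the ventricle Acot2 overlapped, with 9.56, 9.15 and 9.45 after the shunt and 9.44, 9.54 and 9.55 after sham.

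**Figure D4:**
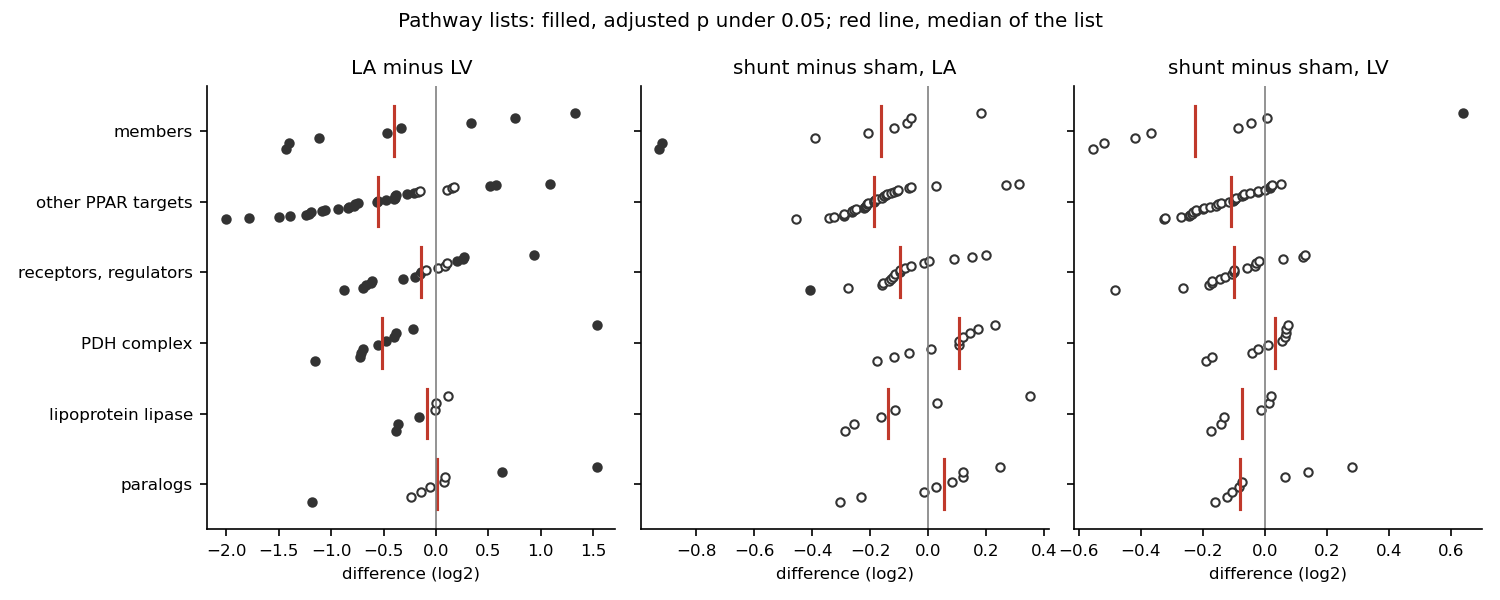
Difference on the log2 scale (x axis) of each tested gene of the members and of 5 pathway lists, for atrium minus ventricle and for shunt minus sham in each chamber. Filled points passed an adjusted p of 0.05 and red lines are list medians. Between chambers the other PPAR targets lie mostly below 0 with a median of -0.56. Between shunt and sham few points of the 5 lists are filled. Filled member points there describe the contrasts that chose the members and are no test.

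The pattern of Pdk4 over the 12 arrays, after the mean of each chamber was subtracted, was set against 10606 genes as a description. Among the members it was closest to Lpin1, with a Pearson r of 0.969, followed by Pdk1 at 0.742, Angptl4 at 0.555, Ucp3 at 0.503, Pdk2 at 0.496 and Ucp2 at 0.473, and it ran against Vnn1 at -0.60. Outside the members the 5 closest genes were Tmod1 at 0.964, Nmrk2, Lpar1 and Rab28 at 0.958 each, and Rcbtb2 at 0.957. The points share the shunt and sham split and the same libraries. Sizes varied among them, with an atrial shunt difference of -0.21 for Tmod1 and -0.84 for Nmrk2.

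Adipocytes also express Pdk4, Lpin1 and Angptl4, so their markers were read on the same arrays. Of 8 adipocyte markers 7 were measured and 2 passed the filter. The mean of all 7, of which 5 were below the filter, was 4.71 to 5.95 on the atrial shunt arrays and 4.94 to 5.20 on the atrial sham arrays. In the ventricle this mean was 4.76 to 4.85 after the shunt and 4.72 to 4.80 after sham. The highest was atrial shunt 3, on which Pdk4 had 7.69 and Lpin1 7.95. The part of adipocytes in the members' values was not tested. Adipoq, the adipocyte hormone adiponectin, did not pass the filter. It had 3.69, 4.37 and 4.69 on the atrial shunt arrays and 3.72, 3.92 and 4.51 on the atrial sham arrays, and at most 3.44 in ventricle. The 2 markers that passed went opposite ways between chambers. In atrium Cfd was higher, by 0.91, and Fabp4 lower, by -0.54.

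Macrophage markers, 11 measured, averaged 6.38, 6.41 and 5.86 on atrial shunt 1, 2 and 3 and 6.03 to 6.14 on the atrial sham arrays. The atrial groups thus overlapped only through atrial shunt 3. Macrophage markers averaged 6.33 to 6.59 after the shunt and 6.16 to 6.23 after sham in the ventricle, without overlap, where Vnn1 was higher and Ucp2 lower after the shunt. Of 10 macrophage genes tested, 0 passed between shunt and sham in either chamber. Endothelial markers averaged 8.34 to 8.40 after the shunt and 8.26 to 8.27 after sham in the ventricle, also without overlap, with 0 of 7 past the threshold. Endothelial markers of the atrium averaged 8.11 to 8.31 after the shunt and 8.19 to 8.20 after sham. Fibroblast markers averaged 9.57 to 10.00 after the shunt and 9.81 to 9.83 after sham in the atrium, and 9.11 to 9.40 and 9.13 to 9.23 in the ventricle. Atrial shunt 3 was the lowest atrial shunt array in the macrophage, endothelial, fibroblast and mesothelial lists.

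Mesothelial markers averaged 5.83 to 6.36 after the shunt and 6.28 to 6.50 after sham in the atrium. Of these 5 genes 1 was lower past the threshold there, where 0.827% of all probe sets were. In the ventricle mesothelial markers averaged 4.36 to 4.53 and 4.20 to 4.22, without overlap. Atrial myocyte markers averaged 11.15 to 11.16 after the shunt and 11.21 to 11.33 after sham in the atrium, without overlap, and 5.65 to 6.56 and 5.84 to 6.15 in the ventricle. Of these 7 genes, 0 passed between shunt and sham in atrium, where 3 were above 0, 4 below, and the median was -0.04. Ventricular myocyte markers averaged 6.39 to 6.78 after the shunt and 5.79 to 6.12 after sham in the atrium, without overlap. In atrium 2 of these 6 were higher past the threshold, where 0.478% of all probe sets were. There 5 were above 0 and 1 below, Irx4, whose atrial values were all below the filter. In the ventricle the list averaged 10.55 to 10.64 and 10.36 to 10.45, also without overlap. There 0 of 6 passed, 4 were above 0 and 2 below. The median was 0.05 and the highest difference 0.98, that of Myh7. The part of these shifts in the shunt differences of the members was not tested.

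**Figure D5:**
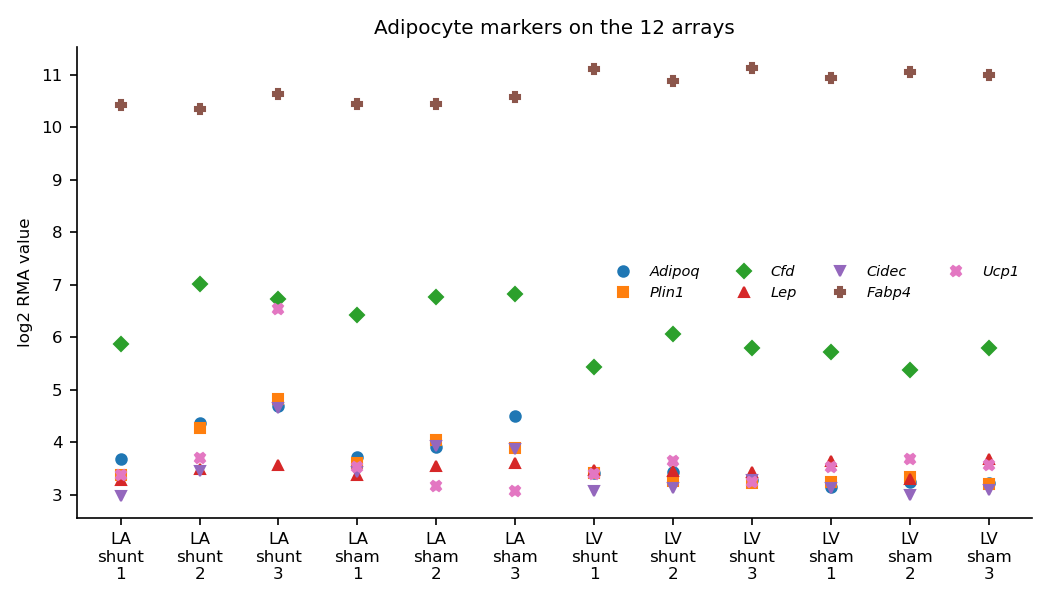
Log2 RMA value (y axis) of 7 adipocyte markers on each of the 12 arrays (x axis, 3 arrays per group by replicate number). Ucp1 reaches 6.53 on atrial shunt 3 and stays at or below 3.71 on the others. Adipoq reaches at most 3.44 in ventricle, and Fabp4 goes the other way, at most 10.63 in atrium and at least 10.89 in ventricle.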

How the data were processed

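Per the submitters' processing notes, the deposited log2 values were made by the authors with RMA (version not given in the sources used here), without saying which arrays were normalized together. Labelling started from 10 µg RNA, per the labels' protocols. No pair of the 12 arrays held identical values. Of 31099 probe sets, 57 controls were left out. Gene names came from the platform annotation, updated by Entrez identifier to GRCr8 (20758 of 20826 probe sets with 1 symbol matched, 436 had several and 9780 none), and the sequences from RefSeq. Probe sets with a mean at or above the 40th percentile (4.01) were tested, 18625 in all, for 10606 genes.

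Each was fitted with limma 3.58.1 in R 4.3.3 (lmFit and eBayes, 1 mean per group over all 12 arrays, 8 residual and 3.68 prior degrees of freedom), with two-sided p-values adjusted by Benjamini-Hochberg over all 18625 and a threshold of 0.05. The spread is pooled over all groups. The fit was tested on simulated data.

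The members and lists were chosen with earlier results of these data known. Named from each list were up to 3 genes with the smallest p past the threshold per comparison, and the 5 genes most like Pdk4. The alternatives were other filters, normalizations, priors, array weights, blocks by replicate number, fits of 1 chamber, a hexokinase covariate, a minimum fold of 1.5, averaged probe sets per gene and leaving out each array.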

Additional observations from a re-analysis of the deposited data

Results flagged for a closer look

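Ucp1, the brown fat relative of Ucp2 and Ucp3, had a value of 6.53 on atrial shunt 3, against 3.39 and 3.71 on the other atrial shunt arrays and at most 3.69 on any sham array. It stood out because the mean of its probe set was below the filter, so that no comparison used it. Whether this signal has a part in any difference of the members was not tested. By their first probe sets the atrial differences of Pdk4 and Lpin1 were -0.95 and -0.96 without that array, against -0.92 and -0.93 with it. The second Pdk4 probe set was lowest on that array, at 5.82 against 6.49 and 6.40 on the other atrial shunt arrays. Its atrial difference of -0.71 is smaller in size without it.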

How the results depend on the processing

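With 3 pools per group, small differences were not resolved, and low probe sets such as those of Angptl4 and Acot1 lie near or below the filter. The chamber calls of the 8 tested members, Angptl4 excepted, held in every fit that left out an array, those of Pdk2, Lpin1, Ucp2 and Angptl4 were lost with a minimum fold of 1.5, and that of Angptl4 also with array weights. No called difference turned its sign. The sign of differences far from the threshold did turn, with Ucp3 in atrium at -0.17 to 0.03 and Angptl4 in ventricle at -0.12 to 0.09 over the settings, and Lpin2 between chambers was lost with a minimum fold of 1.5. Between chambers 8 members passed, 4 with a minimum fold of 1.5, 7 with array weights and 7 to 8 as single arrays were left out. With the filter at the 60th percentile (5.30) 6 passed, since Ucp3 and Angptl4, with means of 5.21 and 4.19, were not tested there. Of all probe sets 11081 passed between chambers, 1381 with that minimum fold and 10318 to 11377 as arrays were left out. The counts of members between shunt and sham describe values that chose them, and no stability is read from them. In atrium 2 lay past the threshold, 0 with the minimum fold and 2 in each fit without an array. Of all probe sets 243 passed there, 910 with array weights, 426 with a trended and robust prior, 758 with the hexokinase covariate, 73 with the replicate block within each chamber, 43 with the chamber's arrays alone, 3 with the minimum fold, and 66 (without atrial sham 3) to 469 (without atrial shunt 3) as arrays were left out. The split of higher and lower calls turned to 246 and 223 without atrial shunt 3, against 89 and 154, and between chambers to 4958 and 5868 after a further quantile normalization, against 5693 and 5388.

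In ventricle 1 member lay past it, 3 with the filter at the 60th percentile, 2 after a further quantile normalization, 3 with array weights, 4 with a trended and robust prior, 4 with the hexokinase covariate, 2 with probe sets averaged per gene, and 0 with the replicate block within each chamber, the chamber's arrays alone or the minimum fold. As arrays were left out it was 0 to 3, with 0 without ventricular shunt 3, ventricular sham 1 or ventricular sham 3. Of all probe sets 20 passed there, in the same order of settings 82, 38, 160, 96, 215 and 20, then 1, 10 and 0, and 0 to 118 as arrays were left out. The cause was not tested, beside the fewer arrays or the stricter demand that some settings bring. Among other results, 47 calls were lost and 44 values moved across settings, and 1170 stayed on their side of the threshold or within the spread.

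The replicate number was also fitted as a block over all groups. It left 8 members between chambers, 2 in atrium and 1 in ventricle, and 208 probe sets in atrium and 15 in ventricle. Whether an atrial and a ventricular array of the same number came from the same rats is not given in the labels. Deviations of same-numbered arrays correlated above 0.1 in 4 of 18 pairs. All 4 paired atrium with ventricle of the same operation. They were 2 of 3 such pairs after the shunt (-0.24 to 0.44) and 2 of 3 after sham (0.07 to 0.26). Pairing by rat was therefore not settled, and the reported fit does not use it. With a block by replicate number within each operation, 8 members and 11339 probe sets passed between chambers. For the difference of the shunt effects, 7 of 23 settings gave at least 1 call, at most 19, with no member among them.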

Other observations

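A probe set annotated with both Acot2 and Acot1, which names neither gene and was singled out after its values were seen, had 6.14, 5.94 and 5.78 on the atrial shunt arrays and 6.29, 6.40 and 6.33 on the atrial sham arrays. In the ventricle it had 7.08, 6.93 and 7.08 after the shunt and 7.36, 7.39 and 7.15 after sham. Shunt arrays were below sham arrays in both chambers without overlap, as were those of 3.39% of all probe sets. The probe set of Acot2 alone overlapped in the ventricle, and that of Acot1 alone was below the filter. The shunt minus sham difference was -0.38 ± 0.10 in atrium and -0.27 ± 0.10 in ventricle, neither past the threshold, and atrium minus ventricle was -1.02 ± 0.07, past it.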
